A study of Mus musculus with 6 samples.

Results

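The genes described here are 44 interferon-induced genes and regulators of the interferon response, taken as a fixed list of names. The list was chosen with earlier results of these data known. A gene counted as measured where the array holds a probe set annotated with that gene alone, and the brightest such probe set stood for it. By this rule 40 of the 44 genes had a value, among 19938 genes measured in the series. The other 4 (Isg15, Ifi44, Igtp and Gbp2) were not analysed here. The list holds 4 interferon receptor subunits, 8 transcription factors, 5 sensors of foreign RNA or kinases activated by it, and 27 genes of the antiviral programme, of which 23 were measured.

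RNA came from forebrain cortex of adult C57BL/6 mice. Animals labelled Dicer KO had the genotype CamKII-Cre/+;Dicer flox/flox, and the littermate controls had either the genotype CamKII-Cre/+;Dicer flox/+, with 1 unaltered allele, or, lacking Cre, the genotype +/+;Dicer flox/flox. No label tells which control had which genotype. The CamKII promoter drives Cre in excitatory forebrain neurons, so glia, vessels and interneurons keep Dicer, the enzyme that matures microRNAs, and every animal of both groups carries a floxed allele. Each of 3 animals per group was hybridised to 1 Affymetrix whole-transcript array, and all values are log2 expression. The series asks what follows in the cortex from losing Dicer in adult neurons.

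Interferons are secreted when a cell detects viral or misplaced nucleic acid. Type I interferons bind IFNAR and interferon gamma binds IFNGR, and both receptors activate STAT proteins. IRF9, in a complex that holds STAT2, then binds the interferon-stimulated response element in promoters of antiviral genes, while genes induced by interferon gamma often carry another element, the gamma-activated site. In brain, microglia, astrocytes, vessels and neurons can all carry out this response.

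Dicer1 read 9.58, 9.68 and 9.46 in the arrays labelled Dicer KO and 9.17, 9.21 and 9.18 in the controls. Its probe set was thus higher and not lower, without overlap, by 0.39 ± 0.087 (SE, limma adjusted p = 0.102). The cause of this rise was not tested. Which exons the probe set covers was not checked here. It may lie outside the deleted part and does not check the labels, and directions below are those of the arrays as labelled. Excitatory neuron markers averaged 10.03 to 10.28 over the 6 arrays, where the median gene lay at 7.65, so the labelled tissue had its defining transcripts. Y-linked transcripts were high in 2 of the 3 arrays labelled Dicer KO and in 1 of the 3 controls. In bulk cortex, fewer cells of a type and less RNA per cell cannot be told apart.

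Most interferon-induced genes read higher in the arrays labelled Dicer KO, led by the chemokine gene Cxcl10 and the antiviral genes Ifit3 and Ifit1, and Ly6e fell. Of the 40 measured genes, 31 had a positive log2 difference and 9 a negative one, with a median of 0.28 against -0.0092 over all 19938 genes, of which 47.3% were positive. After adjustment over all genes (limma with Benjamini-Hochberg adjustment, threshold 0.05) 1 of the 40 passed, Ly6e, beside 0.281% of all genes. At an unadjusted limma p under 0.05, 13 of the 40 were higher, where 7.01% of all genes were, and 1 was lower, where 7.39% were. In 13 of the 40 every array labelled Dicer KO lay above every control array, beside 9.30% of all genes, and in 2 every one lay below, beside 11.0%. Since the list was chosen with earlier results of these data known, these counts describe it and do not test it.

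The differences varied between animals. The 40 genes lay at a median of 0.059, 0.19 and 0.44 above their control mean in labelled Dicer KO arrays 1, 2 and 3, and at -0.067, -0.026 and 0.068 in control arrays 1, 2 and 3. Labelled Dicer KO array 1 therefore lay within the range of the controls by this median, and array 3 farthest from it. Array 3 held the highest of the 6 values in 29 of the 40 genes, array 2 in 6 and array 1 in 0, and a control array in 5. Without labelled Dicer KO array 3 the median difference was 0.14, 28 of 40 genes were positive, 10 were higher and 3 lower at an unadjusted limma p under 0.05, where 8.24% of all genes were higher and 8.68% lower. Of the 40 differences, 16 then shrank by over 1.5 times or changed sign. Another 5 grew by over 1.5 times, all of them negative differences that became more negative (Irf2, Irf3, Irf5, Isg20 and Ifi35). Without labelled Dicer KO array 1 the median was 0.39 and 22 genes were higher and 1 lower at an unadjusted limma p under 0.05, beside 5.86% and 5.21% of all genes.

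**Figure D1:**
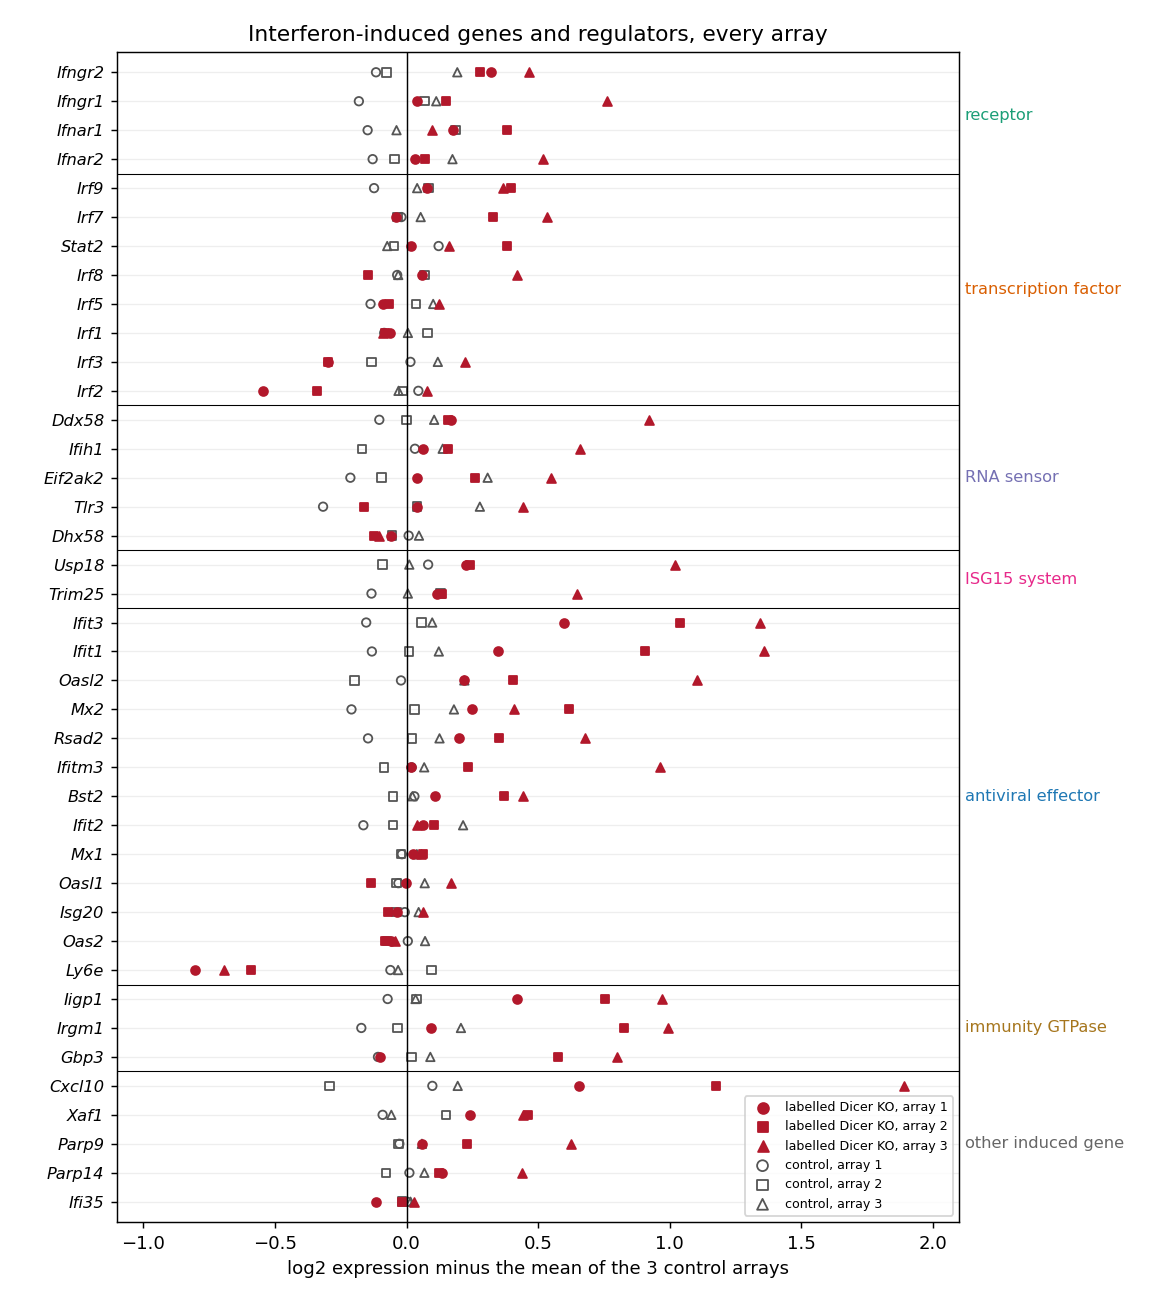
Log2 expression of each measured gene minus its mean over the 3 control arrays (x axis), with filled red symbols for the 3 arrays labelled Dicer KO, open symbols for the 3 controls, the symbol shape for the array number, and genes grouped by role. Labelled Dicer KO array 3 (red triangles) holds the highest value in 29 of the 40 genes, and all 3 red points of Ly6e lie left of the controls.

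Cxcl10 encodes a chemokine that attracts T cells through the receptor CXCR3. Its log2 expression was 6.38, 6.90 and 7.61 in labelled Dicer KO arrays 1, 2 and 3 and 5.82, 5.43 and 5.92 in control arrays 1, 2 and 3. All 3 labelled Dicer KO arrays were above all controls, and array 3 was the highest. The difference of 1.24 ± 0.27 (SE), 2.36-fold, was the largest of the 40 genes and did not pass over all genes (limma adjusted p = 0.0927). Without labelled Dicer KO array 3 it was 0.92.

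Ifit3 and Ifit1 encode proteins with tetratricopeptide repeats, of which IFIT1 binds foreign capped RNA and IFIT3 steadies that complex. Ifit3 read 7.83, 8.27 and 8.58 in the labelled Dicer KO arrays and 7.08, 7.29 and 7.33 in the controls. Its groups were apart by 0.50 at their nearest values, and the difference of 0.99 ± 0.17 (SE), 1.99-fold, missed the threshold (limma adjusted p = 0.0580). Ifit1 read 6.91, 7.47 and 7.92 against 6.43, 6.57 and 6.68, again without overlap and again lowest in labelled Dicer KO array 1. Its difference was 0.87 ± 0.22 (SE), with a limma adjusted p of 0.128. Without labelled Dicer KO array 3 the differences of Ifit3 and Ifit1 were 0.82 and 0.63. Ifit3 has a near-identical neighbour, Ifit3b, with a probe set of its own, and signal shared between the pair cannot be separated here.

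Promoters are shown for Ifit3, Cxcl10, Ifit1 and Rsad2, the 4 genes of smallest p whose window holds the core letters of the interferon-stimulated response element. Each window runs from 250 bases before to 50 bases after the gene's start, is written 5′ to 3′ on the gene's strand, and comes from RefSeq on GRCm38.p6. The windows are chr19:34583279-34583578 (+ strand) for Ifit3, chr5:92348840-92349139 (- strand) for Cxcl10, chr19:34640639-34640938 (+ strand) for Ifit1 and chr12:26456403-26456702 (- strand) for Rsad2. Capitals mark every match on either strand to that core, which reads GAAA, then any 2 bases, then GAAA.
Ifit3: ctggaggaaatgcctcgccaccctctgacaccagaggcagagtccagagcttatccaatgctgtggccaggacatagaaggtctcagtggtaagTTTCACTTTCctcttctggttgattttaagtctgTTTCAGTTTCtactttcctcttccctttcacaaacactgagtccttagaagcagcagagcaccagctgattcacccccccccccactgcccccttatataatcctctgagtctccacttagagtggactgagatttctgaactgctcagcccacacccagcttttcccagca
Cxcl10: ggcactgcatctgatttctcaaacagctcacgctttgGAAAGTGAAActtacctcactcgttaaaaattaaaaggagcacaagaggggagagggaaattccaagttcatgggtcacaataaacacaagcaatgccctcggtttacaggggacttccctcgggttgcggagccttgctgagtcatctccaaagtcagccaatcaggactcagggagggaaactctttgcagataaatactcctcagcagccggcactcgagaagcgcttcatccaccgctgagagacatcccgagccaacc
Ifit1: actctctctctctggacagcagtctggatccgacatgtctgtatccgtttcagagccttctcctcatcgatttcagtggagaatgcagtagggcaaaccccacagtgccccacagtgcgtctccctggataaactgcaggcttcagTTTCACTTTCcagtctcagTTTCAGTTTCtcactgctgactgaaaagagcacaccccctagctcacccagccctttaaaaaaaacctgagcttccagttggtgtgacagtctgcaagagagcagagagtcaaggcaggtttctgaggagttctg
Rsad2: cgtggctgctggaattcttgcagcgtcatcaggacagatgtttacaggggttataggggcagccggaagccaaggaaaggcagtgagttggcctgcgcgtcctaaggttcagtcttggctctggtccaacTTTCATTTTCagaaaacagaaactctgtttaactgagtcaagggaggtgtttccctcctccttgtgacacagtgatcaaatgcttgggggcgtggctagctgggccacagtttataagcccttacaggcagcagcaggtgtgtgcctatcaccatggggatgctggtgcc
The Ifit3 and Ifit1 windows each hold 2 matches, all on the opposite strand, starting 156 and 122 bases before the start of Ifit3 and 104 and 85 bases before the start of Ifit1. The Cxcl10 window holds 1 match on the gene's own strand, 213 bases before the start, and the Rsad2 window 1 on the opposite strand, 120 bases before it.

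A RefSeq window was found for 31 of the 40 genes by symbol; Dhx58, Usp18, Oas2, Mx1, Mx2, Ly6e, Iigp1, Parp9 and Parp14 had none. The core of the response element was present on either strand in 13 of these 31 genes (41.9%), where 3.99% of 27025 genes and 3.44% of all 32851 windows held it. TTCNNNGAA, the letters of the gamma-activated site, which reads the same on both strands, was in 11 of the 31 (35.5%), beside 9.55% of all genes and 8.30% of all windows. The motifs can share bases, and did so in 2 windows of these genes. Since the list names interferon-induced genes and their regulators, these shares describe the list and not the difference between the groups. The 13 genes with the response element core had a median difference of 0.41, with 12 positive, and the 18 without it a median of 0.16, with 13 positive. Without labelled Dicer KO array 3 these medians were 0.24 and 0.067. Of the 18 genes without the match, 10 are receptors or transcription factors, against 2 of the 13 with it, and a match is letters in a window, not a measured binding site.

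**Figure D2:**
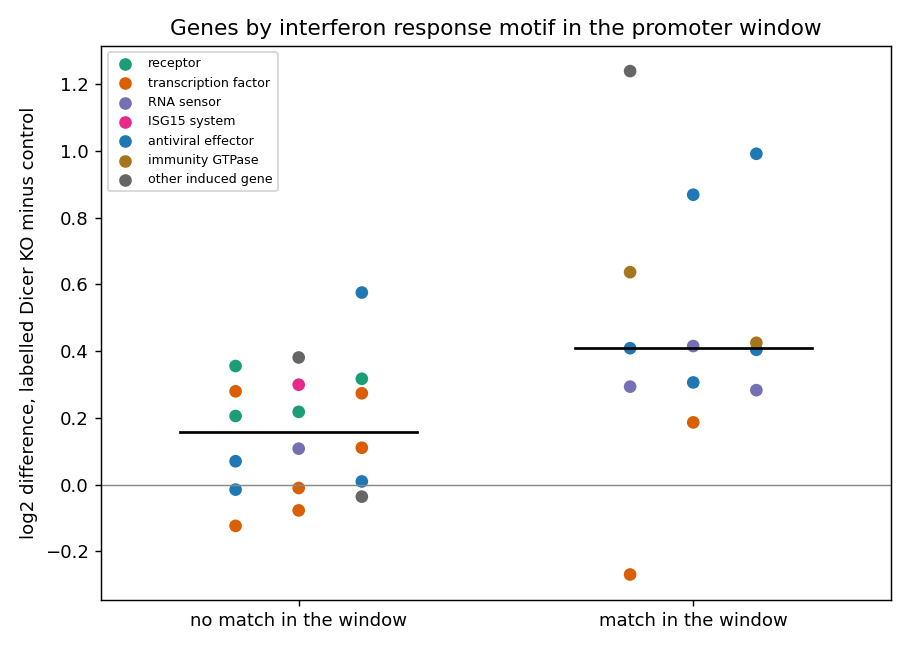
Log2 difference, labelled Dicer KO minus control (y axis), of the 31 genes with a RefSeq promoter window, split by a match to the core letters of the interferon-stimulated response element on either strand; points are genes coloured by role and bars are medians. The 13 genes with a match have a median of 0.41 and the 18 without one a median of 0.16, and Irf2 is the lowest point, at -0.27.

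The immunity-related GTPases and guanylate-binding proteins, which attack the vacuoles of intracellular parasites and bacteria, had positive differences in all 3 genes measured. Iigp1 was dim, at 5.79, 6.12 and 6.34 in the labelled Dicer KO arrays and 5.30, 5.41 and 5.40 in the controls, without overlap. Its difference of 0.71 ± 0.13 (SE), 1.64-fold, missed the threshold (limma adjusted p = 0.0751) and was 0.59 without labelled Dicer KO array 3. Irgm1, a regulator of the other GTPases, read 7.41, 8.15 and 8.32 against 7.15, 7.29 and 7.53. Labelled Dicer KO array 1 lay among the controls for Irgm1, and the other 2 arrays lay well above them, a difference of 0.64 ± 0.21 (SE; limma adjusted p = 0.224). Gbp3 showed the same layout, with 7.32, 7.996 and 8.22 against 7.31, 7.44 and 7.51 and a difference of 0.43 ± 0.20 (SE) that was 0.24 without labelled Dicer KO array 3 and 0.69 without array 1.

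Among the 13 antiviral effectors, 10 had positive differences, where 47.3% of all genes did, and 6 were higher at an unadjusted limma p under 0.05, where 7.01% of all genes were. Ly6e was the 1 gene past the adjusted threshold. Ly6e, a GPI-anchored surface protein that restricts coronavirus entry and is abundant in many cell types, read 10.25, 10.46 and 10.36 in the labelled Dicer KO arrays and 10.99, 11.15 and 11.02 in the controls. It was the brightest of the 40 genes, and its groups were far apart with little spread in either. Ly6e fell by 0.70 ± 0.092 on the log2 scale (SE), 1.62-fold (limma adjusted p = 0.0340). It kept that size, between -0.75 and -0.64, when any 1 array was left out, and its adjusted p was 0.0385 without labelled Dicer KO array 3 and between 0.0835 and 0.141 when any of the other 5 arrays was left out. It was 0.126 in a model that also held the animals' sex, as read from Y-linked transcripts on these arrays.

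Rsad2, which encodes viperin, an enzyme that makes a chain-terminating nucleotide, read 6.73, 6.88 and 7.21 against 6.39, 6.55 and 6.66, without overlap. Its difference was 0.41 ± 0.13 (SE; limma adjusted p = 0.215). Oasl2, an oligoadenylate synthetase-like protein, read 7.31, 7.50 and 8.20 against 7.07, 6.90 and 7.31. Array 3 stood apart here, and the difference of 0.58 ± 0.21 (SE) was 0.31 without it. Bst2, the tethering protein that holds budding virus at the cell surface, read 7.68, 7.94 and 8.01 against 7.60, 7.52 and 7.60, without overlap and with a difference of 0.31 ± 0.10 (SE). Ifitm3, which blocks viral entry from endosomes, read 8.14, 8.36 and 9.09 against 8.14, 8.04 and 8.19, so that array 3 lay 0.73 above the next highest array. The Ifitm3 difference of 0.40 ± 0.21 (SE) was 0.13 without labelled Dicer KO array 3.

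The dynamin-like GTPase gene Mx2 read 5.76, 6.13 and 5.92 against 5.30, 5.54 and 5.69, without overlap, a difference of 0.43 ± 0.13 (SE; limma adjusted p = 0.193). Its relative Mx1, which is defective in most laboratory mouse strains, was the dimmest of the 40 genes, at a mean of 5.02, with a difference of 0.048 ± 0.078 (SE). The other effectors lay close to 0: Ifit2 at 0.070 ± 0.11, the exonuclease gene Isg20 at -0.015 ± 0.082, the oligoadenylate synthetase gene Oas2 at -0.061 ± 0.082 and the translation inhibitor gene Oasl1 at 0.0093 ± 0.099 (SE). These are differences smaller than their errors, and their 95% confidence intervals in the limma model reached at most 0.31 upwards, for Ifit2. For Ifit2, of the same family as Ifit1 and Ifit3, all 3 labelled Dicer KO values, 7.76, 7.80 and 7.74, lay inside the control range of 7.53 to 7.91. Whether the Ifit2 difference departs from those of Ifit1 and Ifit3 was not tested.

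**Figure D3:**
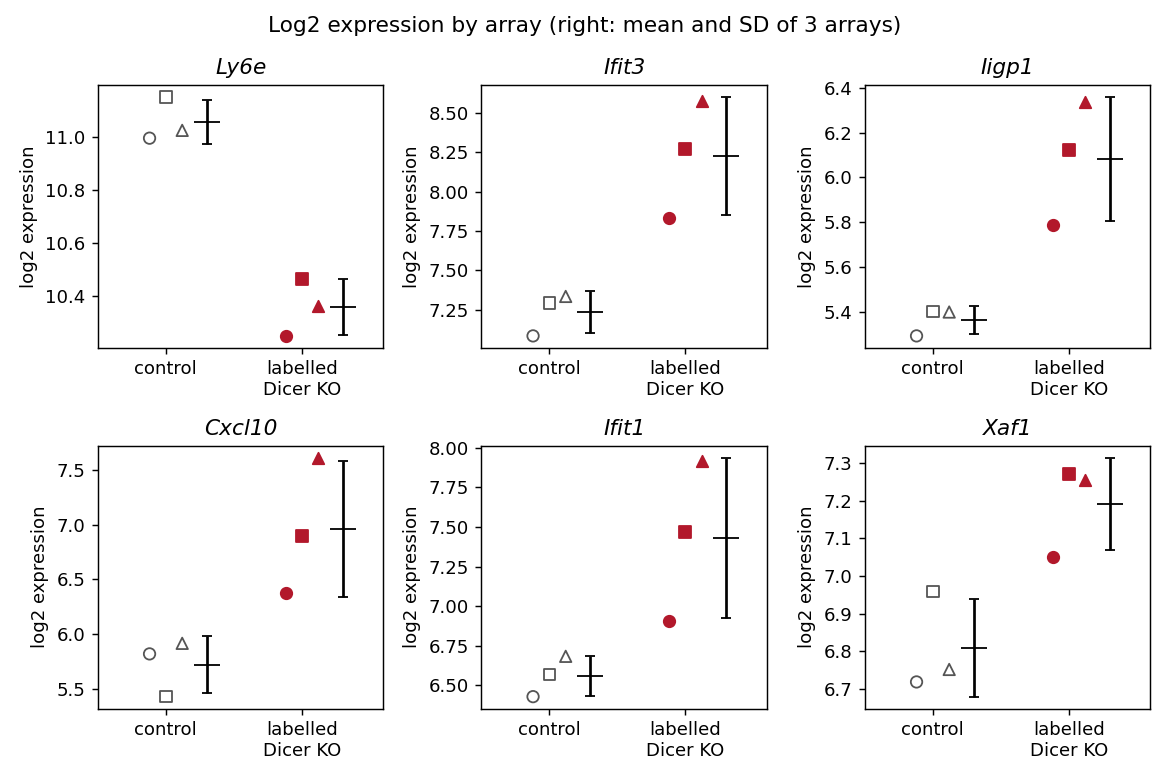
Log2 expression (y axis; each panel has its own range) of the 6 genes of smallest p, per array: open symbols are the 3 control arrays, filled red symbols the 3 arrays labelled Dicer KO, and the crossbar with whiskers is the mean and SD of each group. Ly6e lies at 10.25 to 10.46 in the labelled Dicer KO arrays under 10.99 to 11.15 in the controls, and the groups of the other 5 genes do not overlap and run the other way. The 6 genes were picked by p in this same comparison, which favours groups without overlap. Over all genes, every labelled Dicer KO array lay above every control array in 9.30% and below in 11.0%.

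ISG15 is a small protein that is joined to others like ubiquitin. Usp18 encodes the protease that removes it and also blocks IFNAR signalling, and Trim25 encodes a ubiquitin ligase that acts on the sensor RIG-I. Usp18 read 6.77, 6.79 and 7.57 in the labelled Dicer KO arrays and 6.63, 6.46 and 6.56 in the controls, so array 3 was far above arrays 1 and 2. Its difference of 0.50 ± 0.19 (SE; limma adjusted p = 0.292) was 0.23 without labelled Dicer KO array 3. Trim25 read 6.61, 6.63 and 7.14 against 6.36, 6.62 and 6.50, overlapping the controls, with a difference of 0.30 ± 0.15 (SE) that was 0.13 without that array.

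Of the other induced genes, Xaf1, a cofactor of cell death that binds XIAP, read 7.05, 7.27 and 7.25 against 6.72, 6.96 and 6.75. Its groups did not overlap, and the difference of 0.38 ± 0.10 (SE; limma adjusted p = 0.148) was 0.35 without labelled Dicer KO array 3. The ADP-ribosyltransferase genes Parp9 and Parp14 were at 0.30 ± 0.14 and 0.23 ± 0.11 (SE), and at 0.14 and 0.13 without that array. Their groups did not overlap either, though for Parp9 by as little as 0.0005, between labelled Dicer KO array 1 and control array 3. Ifi35, a leucine zipper protein, was at -0.036 ± 0.082 (SE).

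**Figure D4:**
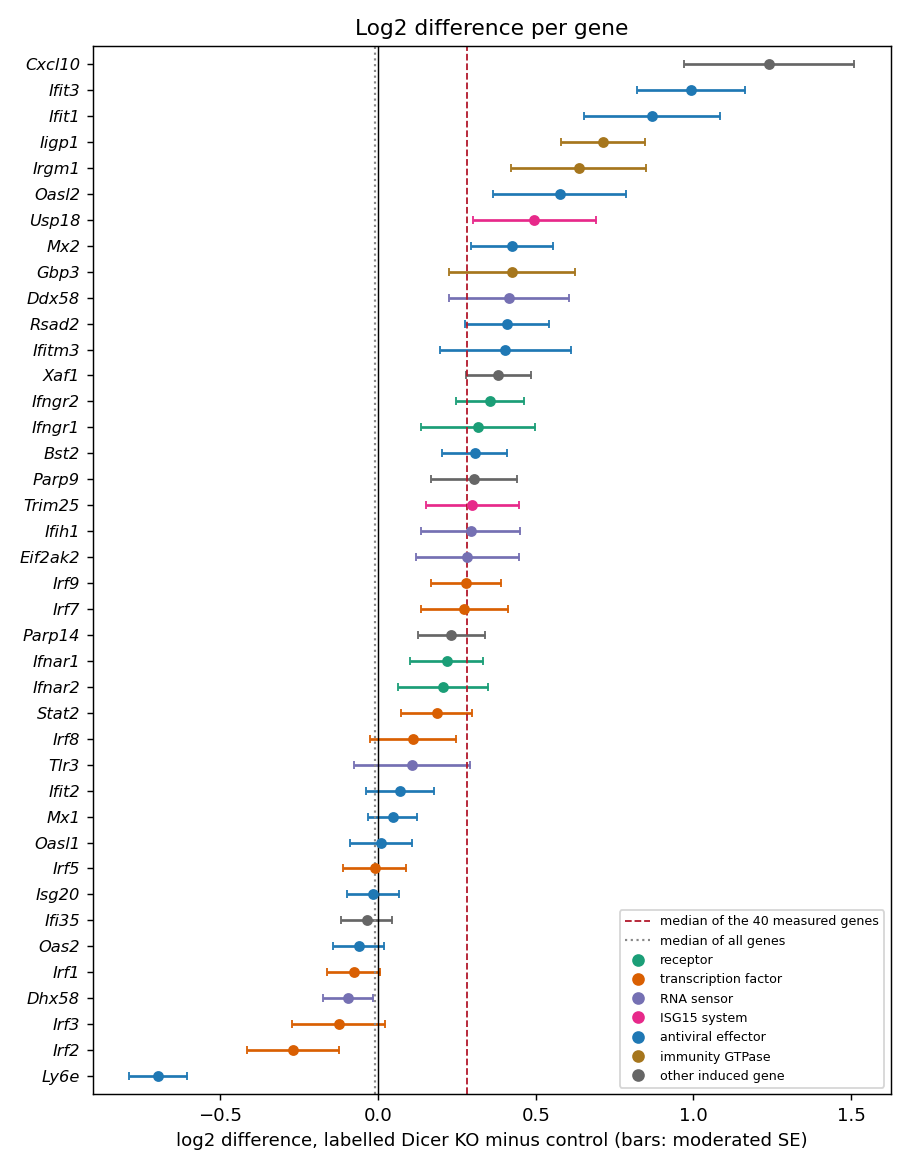
Log2 difference, labelled Dicer KO minus control, of each of the 40 genes with its moderated SE (x axis), coloured by role; the dashed line is the median of the 40 genes and the dotted line that of all genes. Values run from -0.70 for Ly6e to 1.24 for Cxcl10, and the median of 0.28 lies to the right of the median of all genes at -0.0092.

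The sensors that start the response were measured as 5 genes, and none passed an unadjusted limma p of 0.05. Ddx58, which encodes the RNA helicase RIG-I, read 7.43, 7.43 and 8.19 in the labelled Dicer KO arrays and 7.16, 7.27 and 7.37 in the controls, a difference of 0.42 ± 0.19 (SE) that was 0.16 without labelled Dicer KO array 3. Ifih1, the long double-stranded RNA sensor MDA5, read 7.17, 7.27 and 7.77 against 7.14, 6.94 and 7.25, and its difference of 0.29 ± 0.16 was 0.11 without that array. Eif2ak2, the kinase PKR that halts translation on binding double-stranded RNA, was at 0.28 ± 0.16 and 0.15 without it. Tlr3, the endosomal receptor for double-stranded RNA, was at 0.11 ± 0.18, and at -0.060 without labelled Dicer KO array 3. Dhx58, a helicase of the RIG-I family that lacks the signalling domain, lay at 5.97 to 6.03 under 6.04 to 6.14 in the controls, a difference of -0.096 ± 0.080 (SE).

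All 4 receptor subunits had positive differences. Ifngr2, a subunit of the interferon gamma receptor, read 10.41, 10.37 and 10.55 against 9.97, 10.01 and 10.28. Its groups did not overlap, and its difference of 0.36 ± 0.11 (SE; limma adjusted p = 0.191) was 0.30 without labelled Dicer KO array 3. Its partner Ifngr1 read 8.34, 8.46 and 9.07 against 8.12, 8.37 and 8.42, a difference of 0.32 ± 0.18 that was 0.095 without labelled Dicer KO array 3. The type I receptor subunits Ifnar1 and Ifnar2 were at 0.22 ± 0.12 and 0.21 ± 0.14 (SE), and both overlapped the controls. Ifnar1 was at 0.14 without labelled Dicer KO array 2 or without control array 1, and Ifnar2 at 0.050 without labelled Dicer KO array 3.

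The 8 transcription factors were mixed, with 4 positive and 4 negative differences and a median of 0.050. Irf9, a DNA-binding part of the complex with STAT2, read 7.50, 7.82 and 7.79 against 7.30, 7.51 and 7.46, a difference of 0.28 ± 0.11 (SE; limma adjusted p = 0.294). Irf7, the factor that amplifies type I interferon production, read 6.75, 7.12 and 7.33 against 6.77, 6.76 and 6.85, at 0.27 ± 0.14 (SE), which was 0.14 without labelled Dicer KO array 3 and 0.43 without array 1. Labelled Dicer KO array 1 lay below all controls for Irf7, and the other 2 arrays above them. Stat2 was at 0.19 ± 0.11, or 0.089 without labelled Dicer KO array 2, and Irf8, a factor of microglia and myeloid cells, at 0.11 ± 0.14, which was -0.045 without labelled Dicer KO array 3.

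Irf2, a repressor that competes with IRF1 for its sites, read 8.09, 8.29 and 8.71 in the labelled Dicer KO arrays against 8.68, 8.62 and 8.60. Arrays 1 and 2 lay below all controls and array 3 above them, so the difference of -0.27 ± 0.15 (SE) was -0.44 without array 3 (limma adjusted p = 0.0839). Irf3, which responds to RNA and DNA sensors, had the same layout, with 7.40, 7.41 and 7.93 against 7.72, 7.57 and 7.82 and a difference of -0.12 ± 0.15, or -0.30 without array 3. Irf5 was at -0.010 ± 0.10 and Irf1 at -0.077 ± 0.083 (SE). Irf1 is the 1 gene of the 40 with more than 1 probe set, and they disagreed: the dimmer one read 6.71, 6.91 and 6.98 against 6.59, 6.66 and 6.62, all above the controls.

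Other genes of the pathway were taken as 5 lists, and none of their genes passed over all genes (limma, 0 calls at the threshold; 16 higher and 5 lower of 120 at an unadjusted p under 0.05, where 7.01% of all genes were higher and 7.39% lower). The counts at an unadjusted p in the lists of pathway genes and markers below stand against these same shares. Of 43 measured other interferon-induced genes, 37 had positive differences, with a median of 0.12, and 10 were higher and 0 lower at an unadjusted limma p under 0.05, beside 7.01% and 7.39% of all genes. Among them were the ADP-ribosyltransferase gene Parp12 at 0.42 ± 0.097, Trafd1 at 0.41 ± 0.10, the antigen peptide transporter gene Tap1 at 0.39 ± 0.10 and the receptor transporter gene Rtp4 at 0.81 ± 0.23 (SE), with limma adjusted p between 0.105 and 0.169.

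The interferon genes themselves, 15 measured, were mostly dim and had a median difference of -0.023, with 5 positive and 10 negative. Ifna2 was at 0.20 ± 0.085, Ifna13 at -0.25 ± 0.092, Ifnk at -0.22 ± 0.098 and Ifnab at -0.15 ± 0.12 (SE). Of 22 genes of interferon receptor signalling, 13 were positive, with a median of 0.056 and 3 higher at an unadjusted limma p under 0.05, beside 7.01% of all genes. These were Pias3, an inhibitor of STAT3, at 0.48 ± 0.086 (limma adjusted p = 0.0662), Socs2 at 0.24 ± 0.095 and Stat3 at 0.32 ± 0.13 (0.17 without labelled Dicer KO array 3), while the feedback inhibitor gene Socs1 was at -0.21 ± 0.099 (SE).

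The 29 genes of nucleic acid sensing had a median of 0.050, with 2 higher and 2 lower at an unadjusted limma p under 0.05, near the 7.01% and 7.39% of all genes. The NF-kB subunit gene Rela was at 0.26 ± 0.098, the kinase gene Riok3 at 0.37 ± 0.14, Irf4 at -0.27 ± 0.082 and Ikbkb at -0.24 ± 0.096 (SE). The 12 genes of double-stranded RNA binding and editing had 6 positive and 6 negative differences, with Stau2 at -0.27 ± 0.087, the editing enzyme genes Adarb1 at -0.28 ± 0.10 and Adarb2 at 0.16 ± 0.095, and the Dicer partner gene Prkra at -0.22 ± 0.17 (SE).

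Markers of glia moved with the interferon-induced genes in labelled Dicer KO array 3 but not in array 2. In labelled Dicer KO arrays 1, 2 and 3 the 15 microglia and macrophage markers lay at a median of -0.068, -0.30 and 0.52 from the control mean, with 2 of 15 higher and 1 lower at an unadjusted limma p under 0.05 (7.01% and 7.39% of all genes), and their mean level was 7.92 to 8.79 against 7.98 to 8.31 in the controls. The phagocyte gene Cd68 was at 0.75 ± 0.28, or 0.37 without labelled Dicer KO array 3, and the microglial gene Tmem119 at -0.29 ± 0.098 (SE). The 10 astrocyte markers lay at 0.060, 0.042 and 0.41, with 3 of 10 higher, from Aldh1l1 at -0.21 ± 0.16 to the filament gene Gfap at 1.07 ± 0.33 (SE), which was 0.60 without labelled Dicer KO array 3, and a mean level of 10.57 to 11.13 against 10.54 to 10.69. In control arrays 1, 2 and 3 the medians were -0.16, -0.053 and 0.19 for microglia and macrophage markers and -0.065, 0.016 and 0.080 for astrocyte markers. The 8 oligodendrocyte markers lay at 0.19, -0.18 and 0.40 in the labelled Dicer KO arrays and at -0.17, -0.19 and 0.38 in the controls. Among the controls, each of these marker lists was highest in control array 3. In labelled Dicer KO array 2, the 40 interferon genes lay at a median of 0.19 while microglia markers lay at -0.30. The part of glia in the differences of the interferon genes was not tested.

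The 17 leukocyte markers had 0 genes past an unadjusted limma p of 0.05 in either direction, a median difference of 0.0089 and a mean level of 5.82 to 6.12 against 5.83 to 5.94, and 16 of them were dimmer than the median gene. They ran from the calgranulin gene S100a9 at -0.059 ± 0.092 to the integrin gene Itgax at 0.42 ± 0.44 (SE). Labelled Dicer KO array 3 was the high one for Itgax, at 7.29 against 5.41 and 5.37 in arrays 1 and 2, and without it the difference was -0.22. The 12 endothelial markers lay between Emcn at -0.29 ± 0.11 and Pecam1 at 0.26 ± 0.11, with 1 higher and 1 lower. The 8 pericyte and mural markers lay between Rgs5 at -0.10 ± 0.10 and Pdgfrb at 0.36 ± 0.088, and the 8 oligodendrocyte markers between Mobp at -0.065 ± 0.21, which was 0.14 without labelled Dicer KO array 2, and Mal at 0.26 ± 0.18 (SE). Of 9 excitatory neuron markers 7 were negative. At an unadjusted limma p under 0.05, 0 of the 9 were higher and 3 lower, beside 7.01% and 7.39% of all genes. They ran from Nrgn at -0.60 ± 0.088, which passed (limma adjusted p = 0.0413, and 0.0488 without labelled Dicer KO array 3 but 0.0834 to 0.188 without any 1 of the other 5 arrays), to Fezf2 at 0.10 ± 0.13. Of 10 choroid plexus and meningeal markers 9 were positive, beside 47.3% of all genes. At an unadjusted limma p under 0.05, 3 were higher and 0 lower, beside 7.01% and 7.39% of all genes. These markers lay between Folr1 at -0.037 ± 0.094 and Ttr at 1.28 ± 0.53 (SE). The Ttr difference was 0.66 without labelled Dicer KO array 2, where Ttr was highest. The median of the choroid plexus and meningeal list was 0.28, -0.0545 and 0.0385 in labelled Dicer KO arrays 1, 2 and 3. Its mean lay 0.33, 0.21 and 0.12 above the control mean in the same arrays. The part of these tissues in the differences of the interferon genes was not tested. Olfactory bulb markers, from Eomes at -0.99 ± 0.48 (-0.30 without control array 1) to Dcx at 0.31 ± 0.17, were high in control array 1, at a median of 0.87.

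**Figure D5:**
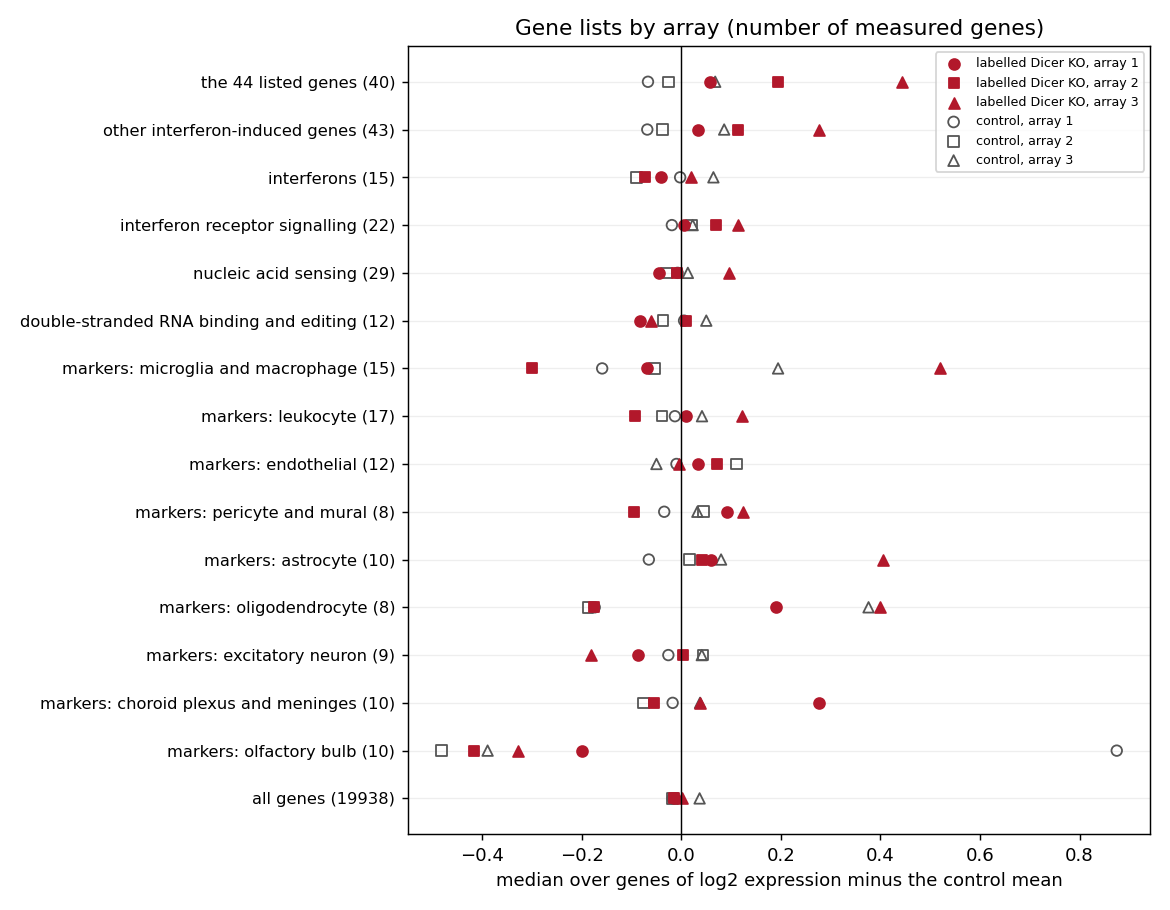
Median over the genes of each list of log2 expression minus the control mean (x axis), for the 3 arrays labelled Dicer KO (filled red) and the 3 controls (open), with the number of measured genes in brackets. The 40 interferon genes lie at 0.059, 0.19 and 0.44 in labelled Dicer KO arrays 1 to 3, and the microglia and macrophage markers at -0.068, -0.30 and 0.52.

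Brightness limits what these arrays can show for the list: 29 of the 40 genes were dimmer than the median gene, with means from 5.02 for Mx1 to 10.71 for Ly6e. Of the 11 brighter genes, Ifit3 and Bst2 passed that mark only through the arrays labelled Dicer KO, since their control means of 7.24 and 7.57 lie under the median gene at 7.65.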

How the data were processed

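The authors deposited 1 table of log2 expression per probe set and array (35557 rows, 6 arrays). Total RNA (200 ng) was extracted with the miRVana PARIS kit and labelled with a whole-transcript kit, per the labels' protocols. The submitters' processing notes name RMA and limma with no version. The genome build is not given in the sources used here. Summaries of this kind pull differences of dim transcripts towards 0. No detection call was used, so signal over background is unknown, no marker can be called absent, and precision is set by having 3 arrays a group.

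Probe sets with several symbols (1621) or none (12147) were left out, symbols were updated by gene identifier (GRCm38.p6), and the brightest probe set per gene was kept. No filter on low values was applied. The test was limma 3.58.1 under R 4.3.3 (group as the only term, two-sided, adjusted over 19938 genes). Errors are moderated standard errors, and the code was tested on simulated data. With 3 arrays a group, exact permutation gives no two-sided p under 0.1. The labels call the arrays biological replicates. Members and lists were chosen with earlier results of these data known, so no test of the list is given. Named genes were all measured members, the 4 of smallest p per pathway list, and the extremes of each marker list; the 4 promoters were the members of smallest p with the response element core. No label pairs animals by array number, so the main test held no such term. Deviations of same-numbered arrays correlated at 0.089, 0.17 and 0.29, and those of differently numbered arrays at -0.23 to 0.094. Whether the numbers pair animals is therefore unknown.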

Additional observations from a re-analysis of the deposited data

Results flagged for a closer look

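The second, dimmer probe set of Irf1, which did not represent the gene above, read 6.87 ± 0.14 in the arrays labelled Dicer KO and 6.62 ± 0.036 in the controls (SD, n = 3 each), a difference of 0.25 with every labelled Dicer KO array above every control. It was singled out because it is a signal in a row left out of the gene values compared above; it entered only the alternative that averages a gene's probe sets. The difference of this probe set was not tested on its own.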

How the results depend on the processing

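Of the 40 genes, 32 kept the sign of their difference in every alternative run for them, which were 14 for the 11 brighter genes and 13 for the 29 dimmer than the median gene. Limma called 56 of 19938 genes in the main setting, 215 with the array number as a block and 1116 with array weights. Without genes below the median gene it called 178 of 9969. It called 0 with the sex of the animal, as read from Y-linked transcripts, as a term (2292 at an unadjusted p under 0.05), and 0 to 129 with 1 array left out. Of the interferon genes it called 5 with the block (Ly6e lower, and Ifit1, Ifit3, Iigp1 and Cxcl10 higher). It called 2 without genes below the median gene (Ly6e, and Ifit3, which passed that filter only through its values in the arrays labelled Dicer KO). Array weights gave 5 calls, with Irf2 and Ly6e lower and Ifngr2, Ifit3 and Iigp1 higher. In that setting 8 interferon genes were higher and 2 lower at an unadjusted limma p under 0.05, beside 11.0% and 12.7% of all genes. Limma called 0 interferon genes with sex (11 higher and 1 lower at an unadjusted p under 0.05, where 5.85% and 5.65% of all genes were), and 0 to 1 with 1 array left out. Of the 120 genes of the pathway lists it called 3 with the block (Lgals3bp, Pias3 and Rtp4), 5 with array weights and 0 with any 1 array left out. Without genes below the median gene it called 1, Pias3. These counts stand against 215 and 1116 of 19938 genes with the block and array weights, and 178 of 9969 with that filter. The numbers share no stated litter or batch. Of the 6 arrays, 5 correlated best with their own number. Deviations were taken from each group's own mean, so these matches are not independent of one another. They cannot decide whether the numbers pair animals.

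The median difference of the interferon genes was 0.14 to 0.39 with 1 array left out, and 0.12 with array weights, which gave labelled Dicer KO array 1 a weight of 5.18 and array 3 one of 0.43. Averaging its probe sets put Irf1 at 0.084. Oasl1 was at -0.018 with median centring, -0.016 with a second quantile normalization and -0.018 with sex as a term. With 1 array left out Irf5 lay between -0.079 and 0.040, Irf8 between -0.045 and 0.24, Tlr3 between -0.060 and 0.25, Ifit2 between -0.012 and 0.18, Isg20 between -0.054 and 0.012, Oasl1 between -0.070 and 0.082 and Ifi35 between -0.068 and 0.0046. The cause of these changes was not tested.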
